A study of Mus musculus with 2 samples.

Results

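The transcripts described here are those that GENCODE, the reference gene annotation, types as retained intron: RNAs that hold sequence which other transcripts of the same gene splice out. They were taken by the biotype written in each transcript's identifier in the FASTQ-derived tables, so no measured value decided which transcripts entered. The choice to describe this biotype was made with earlier results of these data known. They number 21848 of 141767 mouse transcripts (15.4%) and lie in 9421 of 55450 genes, of which 4132 have 1 and the long noncoding RNA gene Gas5 has the most, 20. Protein-coding genes hold 21422 of them. Below, a retained-intron transcript is called a member.

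Total RNA was sequenced from the heart tissue of 2 adult female B6CASTF1/J mice, a first-generation cross between the C57BL/6J and CAST/EiJ strains, aged 8 to 10 months. The animals were untreated and form 1 group: the labels number the animals 1 and 3, called replicate 1 and replicate 2 here. They give both libraries the same donor identifier, so that 2 separate animals rest on these numbers alone. Library preparation was directional and used 300 ng of RNA reduced in ribosomal RNA, to which ERCC spike-in controls were added. Each was quantified in 2 transcript tables, one derived from transcriptome alignments and one from a FASTQ file of reads, which are compared throughout because they assign the same library's reads to transcripts separately.

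Most introns are removed while a gene is transcribed. An intron that stays usually carries a stop codon in the reading frame, so the RNA is either held in the nucleus or destroyed by nonsense-mediated decay once it is translated. Retention is best known for genes of the splicing machinery itself, such as the SR proteins and the CLK kinases that phosphorylate them, where "detained" introns keep a stock of unfinished RNA in the nucleus. In muscle, splicing is also regulated by RBM, MBNL and CELF proteins.

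The annotated members took 4 main forms, and fewer than the name implies keep an intron from end to end. A complete intron of another transcript lay inside an exon of 7034 members (32.2%). A further 7391 ended inside an intron after running past its 5′ splice site, 5213 began inside an intron and ran through its 3′ splice site into the next exon, and 1947 did both. The remaining 263 had none of these features. The sites that members run through are ordinary ones: GT stood at the 5′ splice site in 11697 of 11870 cases and AG at the 3′ splice site in 9085 of 9113.

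The windows below, from the GENCODE M21 transcript sequences (mm10), show such junctions in members that the results turn on. Each has 30 bases, 20 of them intronic, written 5′ to 3′ on the transcript's strand. Capitals mark the intron's AG or GT. The first 3 begin inside an intron, so the intron's end is transcribed together with the exon that follows it.
Tnni3-202 (chr7:4520518-4520547, minus strand): tccacgcgttccttcaccAGgacttatgcc
Cryab-204 (chr9:50754492-50754521, plus strand): ctgtccccttgttattctAGatgcgtttgg
Myh7-206 (chr14:54973496-54973525, minus strand): ctcatttttctgatcctcAGgacactcaaa
The next 3 run from an exon into an intron and end there.
Clk1-209 (chr1:58421754-58421783, minus strand): cgacagacagGTaagaaaggcggttatggg
Srsf1-206 (chr11:88048665-88048694, plus strand): gttgtctctgGTgagttgacttcgtgcggg
Mat2a-210 (chr6:72436975-72437004, minus strand): tcttccaaagGTatgttttaaagatttttt

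Whole retained introns are shown for 7 members, because the reading frame inside them differs. All lie between coding exons of another transcript. Capitals mark the first and last 2 bases and, where there is one, the first stop codon in the frame of the preceding exon.
Ncl-202 (chr1:86352320-86352509, minus strand): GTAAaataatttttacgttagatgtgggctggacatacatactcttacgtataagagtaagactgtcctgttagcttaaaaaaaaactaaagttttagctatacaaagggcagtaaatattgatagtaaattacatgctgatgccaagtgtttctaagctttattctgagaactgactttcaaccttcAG
Myh6-204 (chr14:54957261-54957346, minus strand): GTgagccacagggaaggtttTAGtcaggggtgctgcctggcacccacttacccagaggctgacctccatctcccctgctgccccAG
Tnnt2-208 (chr1:135841912-135842014, plus strand): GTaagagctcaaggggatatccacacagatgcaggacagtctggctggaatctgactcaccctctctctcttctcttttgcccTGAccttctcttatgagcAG
Mrps26-201 (chr2:130564228-130564307, plus strand): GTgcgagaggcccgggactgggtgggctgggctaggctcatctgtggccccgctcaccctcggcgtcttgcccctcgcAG
Mrps24-201 (chr11:5707556-5707623, minus strand): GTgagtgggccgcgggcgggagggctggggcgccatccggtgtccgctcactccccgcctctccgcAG
Prelid1-202 (chr13:55324445-55324526, plus strand): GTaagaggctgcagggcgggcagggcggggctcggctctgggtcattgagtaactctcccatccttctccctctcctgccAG
Dmpk-215 (chr7:19088110-19088187, plus strand): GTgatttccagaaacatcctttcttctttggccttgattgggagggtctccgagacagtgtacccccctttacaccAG

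The Ncl intron meets a stop at its base 2, the Myh6 intron at base 21 and the Tnnt2 intron at base 84. The Mrps26, Mrps24 and Prelid1 introns have 80, 68 and 82 bases and no stop in frame, and since none of these lengths divides by 3, each shifts the frame of the exon after it. The Dmpk intron, 78 bases long, has no stop and divides by 3, so this intron by itself would add codons without a shift. These cases stand for the annotated introns as a whole as follows. The members hold 10258 different complete introns in 4307 genes, 6.49% of the 158105 introns in the transcripts of other biotypes of all genes with a member. Of these, 97.6% were GT-AG, 147 were GC-AG and 12 were AT-AC. Coding exons flanked 7964 of them, and 7063 of the 7961 whose frame could be read (88.7%) met a stop, at a median of intron base 37. Only 241 divided by 3 and had no stop. The frame was checked on the 10 codons before each intron, which held a stop in 0 of 8915 cases (member by intron).

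The complete retained introns were short: their median length was 289 bases, against 1540 for the other introns. Within genes, the median over 4241 genes of the log2 ratio of the median retained to the median other intron was -1.32, that is 2.50-fold shorter, and the retained introns were the shorter in 3507 genes (82.7%). An intron has to fit inside an exon of the annotated transcript to be counted as retained, which favours short ones, and the part of this in the ratio was not tested. Retained introns were no more often the first intron of a coding transcript (15.8%, against 15.8% for the others) and the last intron in 14.8% against 13.8%. Their median GC content was 51.0%, against 53.8% in up to 100 bases of transcript on each side, and the intron was the poorer in GC in 6806 of 10258 (66.3%). Levels are given in TPM, the abundance of a transcript relative to all RNA measured in the library, already divided by transcript length. In the 323 introns held by members that reach 1 TPM in both animals and both tables, the median length was 199 bases, and 178 of 213 with a readable frame met a stop (83.6%).

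At 1 TPM or more in both animals stood 1308 members in the alignment-derived table (5.99%, against 13.4% of transcripts of any biotype) and 1345 in the FASTQ-derived one (6.16%, against 13.8%). For comparison, the shares were 25.4% and 25.9% of protein-coding transcripts, 10.3% and 11.5% of transcripts annotated for nonsense-mediated decay, and 8.04% and 9.38% of processed transcripts. The order was alike in genes that are themselves expressed: in genes with a member at 5 TPM or more, 10.8% of members, 47.2% of protein-coding and 18.7% of nonsense-mediated decay transcripts stood at 1 TPM or more in the alignment-derived table. No count at all was assigned to 5937 members in either animal in that table and to 5543 in the other. At the other end, 196 members reached 10 TPM and 22 reached 100 TPM in both animals in the alignment-derived table. Members were therefore mostly low or undetected, with a small abundant set. Shares of transcripts of any biotype without counts, at 10 TPM or at 100 TPM are not given here. Whether the numbers of members without counts, or at these 2 levels, are particular to the biotype was not tested.

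Members held 2.27% of all mouse TPM in replicate 1 and 1.97% in replicate 2 (2.12% ± 0.21, SD, n = 2) in the alignment-derived table, and 2.62% and 2.27% in the FASTQ-derived one. By counts, which are not divided by length, the shares were 1.34% and 1.20% in the alignment-derived table, and 1.35% and 1.21% in the FASTQ-derived one. Within genes that have a member, members made up 9.22% ± 0.07 and 10.0% ± 0.22 of the TPM. The sum was concentrated: 1 transcript, Tnni3-202, made up 9.69% ± 0.19 of all member TPM, the 10 most abundant 30.8% ± 0.30 and the 100 most abundant 58.9% ± 0.44. Members that begin inside an intron and have neither a complete intron nor an end inside one were 23.9% of all members and held 61.5% ± 0.06 of their TPM (66.7% ± 0.51 in the FASTQ-derived table). Members with a complete intron held 13.2% ± 0.06 and 18.02% ± 0.75.

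The most abundant member in the alignment-derived table, Tnni3-202, from the gene of cardiac troponin I, the inhibitory subunit of troponin, stood at 2218 TPM in replicate 1 and 1877 in replicate 2, or 52.7% and 48.7% of the gene's TPM. The FASTQ-derived values were 2263 and 1602 TPM. Its 451 bases hold only 40 that are not in an exon of a transcript of another biotype, the intron end shown above with its AG. Such bases are called a transcript's own below, although another member of the gene may hold them too. Cryab-204, from the gene of the small heat shock protein alpha B-crystallin, reached 856.1 and 677.0 TPM (57.1% and 53.0% of the gene) and 700.4 and 567.3 TPM in the FASTQ-derived table. Replicate 1 was the higher for both transcripts in both tables.

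Myh7-206 comes from the slow or beta myosin heavy chain gene, which the adult mouse heart expresses far below its alpha counterpart Myh6. It stood at 533.4 and 527.1 TPM (78.0% and 76.9% of Myh7) and at 807.2 and 822.3 TPM in the FASTQ-derived table, so the animals hardly differed. By counts, its share was 22.1% ± 0.77 in the alignment-derived table. Only 23 of its 595 bases were its own, and 58.8% of its 31-base words also occur in transcripts of another gene. How far reads of other genes entered its value was not tested.

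Of the 15 most abundant members, all but Tnni3-202, Cryab-204 and Myh7-206 came from nuclear genes of mitochondrial proteins, and in several of them a member was the leading transcript. Atp5j-208, from an ATP synthase subunit gene, stood at 519.5 and 517.1 TPM (92.6% and 93.6% of the gene). The FASTQ-derived table gave 539.3 and 550.7 TPM but smaller shares, 67.8% and 69.1%. Cox7b-203, from a cytochrome c oxidase subunit gene, stood at 461.3 and 387.3 TPM (60.4% and 58.1%). In the FASTQ-derived table it stood at 1174 and 1069 TPM, nearly the whole gene at 99.6% and 99.5%. Chchd10-202, from a gene of the mitochondrial intermembrane space, had 58.9% and 59.1% of its gene, and 58.8% and 56.8% in the FASTQ-derived table. Uqcrh-205, Ndufc1-203, Cox4i1-203 and Hadhb-208 were abundant in both tables too, between 147.0 and 445.2 TPM in every library and table.

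For 3 of the 15 the tables differed by more than an order of magnitude. Cox6b1-202, from a cytochrome c oxidase subunit gene, stood at 759.7 and 740.5 TPM in the alignment-derived table and at 0.92 and 0.43 TPM in the FASTQ-derived one. Ndufb8-202, from a complex I subunit gene, stood at 302.8 and 272.4 TPM against 0 counts in both animals. Ndufab1-208 stood at 208.3 and 176.4 TPM against 6.55 and 1.09, while its sister transcript Ndufab1-205 was abundant in both tables (201.8 and 189.8 TPM, then 360.4 and 337.9). In the alignment-derived table the animals were close to each other in all 3.

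**Figure D1:**
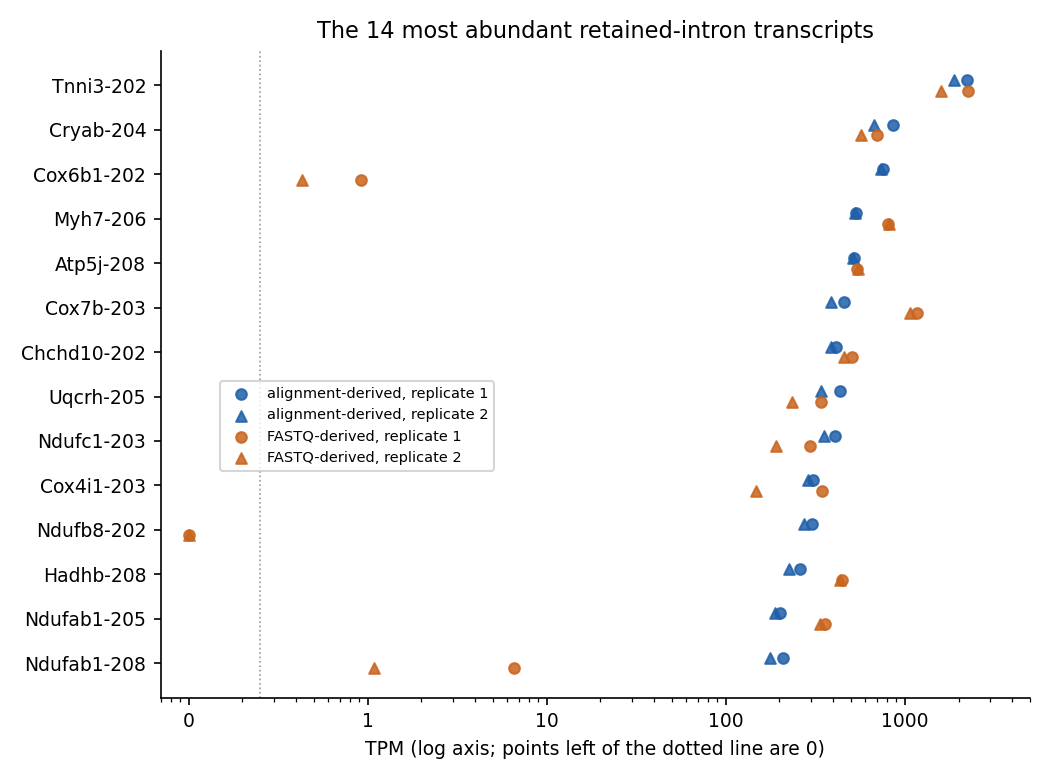
TPM of the 14 most abundant members on a log axis, with 1 point for each animal and table. The blue alignment-derived points of the 2 animals nearly coincide, while the orange FASTQ-derived points of Cox6b1-202, Ndufb8-202 and Ndufab1-208 lie far to the left.

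How much of a member is its own sequence bears on these values. Each member was cut into overlapping words of 31 bases, and a word was called private when no transcript of another biotype of the gene and no other gene holds it. A word shared only with another member of the same gene thus still counts as private. The median member had 42.8% private words. Members at 1 TPM or more in the alignment-derived table had a median of 18.6%, those under 1 TPM 44.6%, and the 22 at 100 TPM or more 19.99%. Of members with more than 50% private words, 141 of 9146 reached 1 TPM in both animals in the alignment-derived table (1.54%), against 1167 of 12702 of the rest (9.19%). In the FASTQ-derived table the counts were 171 (1.87%) and 1174 (9.24%). Members with at most 25% private words were 28.5% of the members and held 73.3% ± 0.81 of their TPM, and 63.6% ± 0.44 in the FASTQ-derived table. Those with more than 50% held 8.48% ± 0.29 and 10.4% ± 0.25. Most of the TPM assigned to members therefore sat on transcripts that share most of their sequence with other transcripts. Unspliced RNA that was on its way to being spliced, which total RNA also holds, cannot be told apart from a stable retained intron in these tables.

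**Figure D2:**
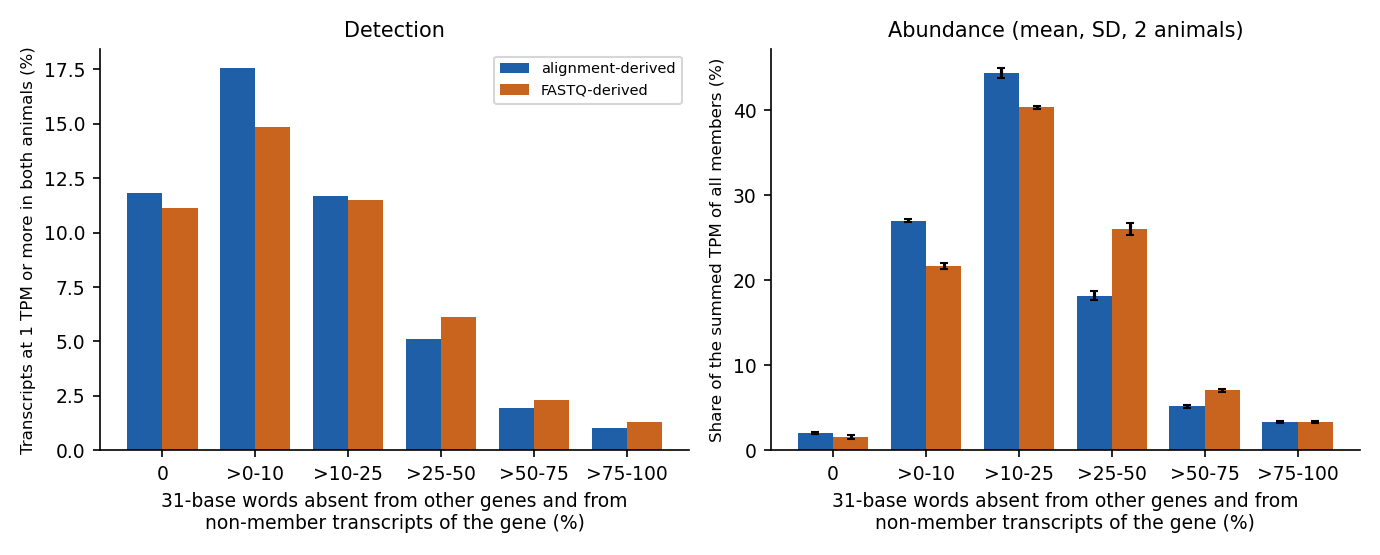
Members grouped by their percent of private 31-base words. Left, the percent at 1 TPM or more in both animals, which is highest (17.5% and 14.8%) in the group with above 0 and up to 10% private words and falls to 1.01% and 1.29% above 75%. Right, the share of all member TPM, as mean and SD of 2 animals.

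The members with mostly private words were at lower levels, and in the alignment-derived table the 5 most abundant of the 36 below came from sarcomere genes. Among the 2704 members with a complete intron and more than 50% private words, 36 stood at 1 TPM or more in both animals and both tables. The members named here were picked out after their values were seen. Tnnt2-215, 1 exon of 3330 bases in the cardiac troponin T gene with 99.0% private words, stood at 12.1 and 10.2 TPM and, in the FASTQ-derived table, 12.2 and 10.4. Its sister Tnnt2-208, which holds the intron shown above, stood at 11.2 and 10.8 TPM, then 8.67 and 8.19. Both were minor beside the spliced transcripts, at 0.35% ± 0.03 and 0.35% ± 0.001 of Tnnt2 in the alignment-derived table. Myl3-204, from a myosin light chain gene, stood at 12.6 and 10.3 TPM (14.1 and 11.4 in the FASTQ-derived table). Tnni3-206 stood at 8.93 and 7.21 TPM (9.83 and 8.26), and each of these held under 0.5% of its gene. Myh6-204 stood at 10.9 and 8.93 TPM but at 5.12 and 4.59 in the FASTQ-derived table.

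Others of the 36 held more of their gene. Lyrm2-203, from a gene of the LYR motif family, had 22.2% and 13.8% of its gene at 2.53 and 1.85 TPM, and 29.4% and 37.2% at 4.22 and 4.85 TPM in the FASTQ-derived table. Gm43305-201 had 86.3% and 87.1% of a gene at 3.33 and 2.98 TPM. Sptbn1-206, from a spectrin gene, stood at 5.88 and 3.37 TPM, but at 1.75 and 1.14 in the FASTQ-derived table. Dmpk-215, from the myotonic dystrophy kinase gene, stood at 3.66 and 3.01 TPM, then 5.65 and 4.98, and its intron of 78 bases is printed above. Another member, Dmpk-209, holds the same intron. Dmpk-215 also begins inside an intron, keeping 255 of its bases, and ends inside another, keeping 362. Fabp4-202, from the fatty acid binding protein gene used here as an endothelial marker, stood at 1.97 and 1.52 TPM, under 1% of its gene in the alignment-derived table. For Fabp4-202 and Gm43305-201 the FASTQ-derived values were over 2-fold higher, at 4.73 and 4.32 TPM and at 19.4 and 17.3 TPM.

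The share that members take of a gene was compared over genes that also have a transcript of another biotype and that stood at 5 TPM or more in both animals. In the alignment-derived table this left 4293 genes, with a median member share of 3.16% ± 0.11 and an upper quartile of 11.5% ± 0.06. In the FASTQ-derived table it left 4334 genes, with a median of 3.51% ± 0.19. By counts the medians were 1.75% ± 0.07 and 1.92% ± 0.07. A share of 10% or more in both animals was seen in 996 genes (23.2%) and 1056 genes, and of 50% or more in 98 and 115. The median share fell with the level of the gene, from 4.03% ± 0.30 in genes of 5 to 20 TPM to 0.41% ± 0.02 in genes at 500 TPM or more. A member led, meaning that it had the highest TPM of its gene, in both animals in 129 genes (3.00%) and 147 genes. Counted over transcripts, 123 of the 11510 members of these genes led in both animals (1.07%), against 11.0% of transcripts of any biotype, and 141 in the FASTQ-derived table (1.21%, against 10.7%). In genes at 500 TPM or more, members led in 8 of 62 (12.9%), and in 5 of 67 in the FASTQ-derived table.

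Both tables and both animals had a member in the lead in 84 of the 4200 genes compared in both. The mean shares in the tables differed by less than 10 points in 3567 of these genes (84.9%), with a Spearman correlation of 0.78 across genes, which are not independent and share their libraries. In 13 genes the shares differed by 50 points or more. Members held 92.3% of Rps18, a ribosomal protein gene, against 2.14% by the FASTQ-derived table. For Cops9, a COP9 signalosome gene, they held 0.052% against 98.6%.

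**Figure D3:**
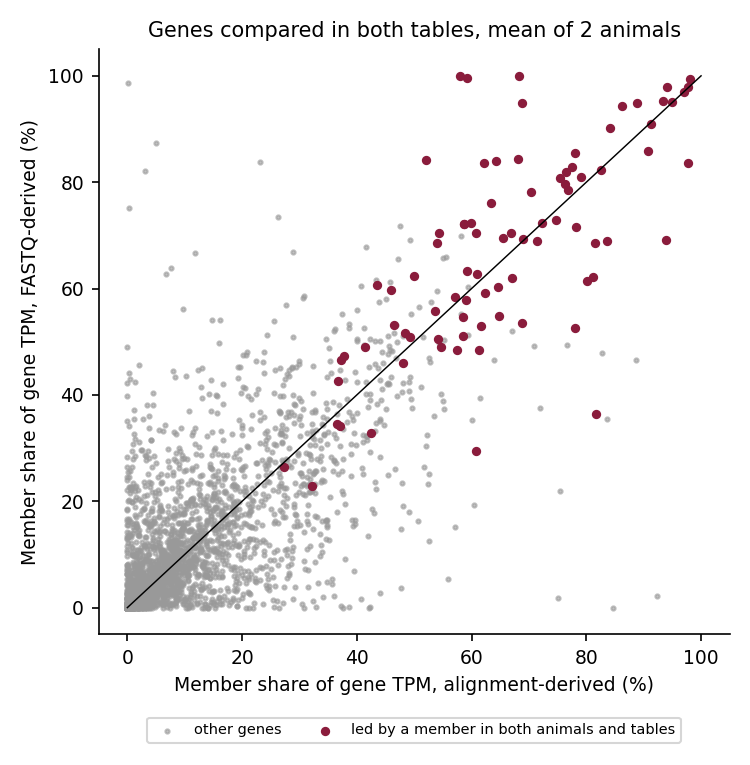
Member share of gene TPM in the 2 tables, 1 point for each of 4200 genes (mean of 2 animals), with the line of equal shares. Red points are the 84 genes led by a member in both animals and both tables; points along the axes are genes whose member share is large in 1 table only.

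Among the members with the highest shares of their gene, Myh7-206 was the only one from a sarcomere gene, and several came from genes of ribosomes and mitochondria. Mrps26-201, from a mitochondrial ribosome gene, stood at 24.0 and 24.3 TPM, 97.6% and 96.5% of the gene. The FASTQ-derived values were 23.01 and 23.6 TPM, so the tables and the animals were close. Its own sequence is the intron of 80 bases printed above. Mrps24-201, from another gene of that ribosome, had 78.6% and 71.0% of its gene, and 82.7% and 80.7% in the FASTQ-derived table, and differs from the spliced RNA by its intron of 68 bases. Prelid1-202, from the gene of a mitochondrial phospholipid transfer protein, had 92.0% and 89.5%, and 87.4% and 84.5%. In these 3 genes the retained intron lacks a stop in frame, as printed above. These introns are the only bases of the 3 transcripts that no transcript of another biotype of the gene holds in an exon.

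Ncl-202 was the longest of the 15 members with the highest shares apart from BC003965-202, at 3072 bases, of which 682 were its own. It comes from the gene of nucleolin, a main protein of the nucleolus, and stood at 33.5 and 29.97 TPM, 79.1% and 79.5% of the gene, with 81.5% and 80.8% in the FASTQ-derived table. By counts its share was 62.5% ± 0.94. Rps26-202 (92.5% and 95.0%), Mrpl57-202 (93.3% and 93.6%), Cst6-202 (85.3% and 92.5%), Ift81-203 (75.1% and 78.1%) and Uxt-206 (75.8% and 59.3%) all begin inside an intron. By counts some of these shares were far lower. Chic2-202 had 85.7% and 88.1% of gene TPM but 22.7% ± 2.49 of gene counts. For Ptges2-203, from a prostaglandin E synthase gene, the values were 78.0% and 74.4% of gene TPM and 30.8% ± 2.59 of gene counts.

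Gene lists were compared by the median share of their genes, beside the median over all compared genes (3.16% and 3.51%). Some lists of splicing genes lay above it and others near it. Of 10 SR protein genes compared, 5 had 10% or more in both animals by alignment and 4 by the FASTQ-derived values. Over all compared genes, 23.2% and 24.4% had such a share. The medians of the SR protein genes were 11.4% ± 1.47 and 11.4% ± 1.249. The CLK and SR protein kinases had medians of 19.6% ± 4.16 over 7 genes and 24.5% ± 3.19 over 8. The 5 genes chosen as known for detained introns, 2 of them CLK kinases, had 24.1% ± 2.15 and 27.9% ± 1.36. The list of regulators of cardiac splicing, which also holds Rbm5, Rbm25, Rbm39, Ptbp1 and Ptbp2, had 12.7% ± 1.88 over 10 genes and 11.9% ± 4.11 over 11. By contrast, the hnRNP proteins (3.33% and 2.80%) lay near the median of all genes, and the core spliceosome (4.78% and 4.95%) somewhat above it. The factors of nonsense-mediated decay, with 4 genes compared, had 5.63% and 4.76%. By the mean of both tables the highest of these was Smg1, a kinase of that pathway, at 15.4% and 17.6%, then 5.09% and 6.91%, where Smg5 was higher at 5.53% and 8.43%. These lists hold few genes and were chosen with earlier results of these data known. No test of their difference was made. They also differ in gene level and in members per gene, and neither was adjusted for. Over all compared genes in the alignment-derived table, the median share was 4.03% at 5 to 20 TPM and 0.41% at 500 TPM or more.

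Among SR proteins, which bind exons and promote their splicing, Srsf11 had the highest share. Its 11 members summed to 41.8% and 38.2% of the gene, and 41.5% and 43.3% in the FASTQ-derived table. Its Srsf11-208, which runs past a 5′ splice site and has 83.3% private words, stood at 1.13 and 0.60 TPM. Srsf1 had 32.6% and 32.7%, then 22.9% and 20.3%. Of this, Srsf1-206 alone held 18.1% and 17.2% at 6.79 and 4.93 TPM. Tra2a hardly moved, at 12.5% and 12.6%, then 12.4% and 12.5%. Srsf5 differed between the animals, at 17.9% in replicate 1 and 7.02% in replicate 2 (18.8% and 6.93% in the FASTQ-derived table). The gene itself was lower in replicate 1, at 23.2 against 41.5 TPM, while Srsf5-212 stood at 3.21 and 2.01 TPM. Srsf3, Tra2b, Srsf6, Srsf7 and Srsf2 had mean shares between 7.51% and 13.7% in either table, and Srsf4 was the lowest of the list, at 3.22% and 3.47%.

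Each kinase of the CLK family, which phosphorylate SR proteins, stood far above the median of all genes. Clk4 had 51.9% and 55.2% of its TPM in 7 members, and 39.7% and 32.5% in the FASTQ-derived table. Clk3 had 38.9% and 41.2%, then 39.7% and 33.6%. Clk1 had 22.5% and 26.9%, then 28.9% and 27.0%. Clk2 was compared only in the FASTQ-derived table, with 19.1% and 17.6%, as replicate 2 stood at 4.98 TPM in the other. The levels behind these shares were low: Clk1-209, whose junction is shown above, stood at 1.78 and 1.5 TPM on 21.3 and 18.1 expected counts, and Clk4-207 at 2.58 and 2.05 TPM. The SR protein kinases were uneven. Srpk3, the muscle member, had 17.9% and 16.7% (27.4% and 30.04% in the FASTQ-derived table), Srpk1 23.1% and 6.40% (26.2% and 14.2% in the FASTQ-derived table), and Srpk2 2.63% and 1.08%, and Dyrk1a, another kinase of splicing factors, under 1% in every library and table.

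Ogt and Mat2a, also on the detained-intron list, had smaller shares than the CLK kinases. Ogt, the enzyme that adds N-acetylglucosamine to nuclear and cytosolic proteins, had 14.5% and 12.6%, then 16.3% and 12.8%. Its Ogt-204, with a complete intron, stood at 2.35 and 1.12 TPM. Mat2a, which makes S-adenosylmethionine, had 7.01% and 12.8%, then 8.56% and 12.3%, so here replicate 2 was the higher in both tables.

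In the regulators of cardiac splicing, Rbm25 had 56.1% and 31.8%, then 56.8% and 28.9%, Rbm5 30.3% and 30.4%, then 36.5% and 41.2%, and Qk, which encodes the quaking RNA-binding protein, 16.8% and 15.7%, then 14.9% and 14.8%. Rbm24, a muscle regulator, had 14.4% and 16.2%, then 8.98% and 2.42%. Mbnl1, Mbnl2, Celf2 and Rbfox2 were below 4% in every library and table, and Rbm20, Rbfox1 and Celf1 have no member. Rbm39 had 21.5% and 16.8%, then 18.4% and 15.7%. Of the polypyrimidine tract binding proteins, which repress exons, Ptbp1 had 8.34% and 12.3%, then 5.95% and 15.5%, and Ptbp2, compared only in the FASTQ-derived table, had 32.9% and 22.6%. The high shares on this list were thus spread over the RBM, quaking and PTBP genes. Hnrnpk stood apart from its list with 35.4% and 37.7%, then 36.4% and 36.3%, and Snrpb2 led the core spliceosome with 62.7% and 61.6%, then 100% and 67.3%. The Snrpb2 gene level was near 5.6 TPM in the alignment-derived table, and 8.45 and 8.06 TPM in the FASTQ-derived one.

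Sarcomere genes were mostly low, as were highly expressed genes in general. Over all compared genes at 500 TPM or more the median was 0.41% ± 0.02, or 0.27% ± 0.08 in the FASTQ-derived table. The 14 sarcomere genes compared had a median of 0.65% ± 0.06, or 0.48% ± 0.02 in the FASTQ-derived table. Myh7, Tnni3 and Myl4 were the 3 of these 14 with 10% or more in both animals in the alignment-derived table, against 23.2% of all compared genes. Myl4, the atrial light chain, had 39.1% and 40.1%, then 16.5% and 16.5%. Ttn had 0.89% and 0.95%, and Myh6 0.50% and 0.56%. The medians of the nuclear respiratory chain (0.73% and 0.26%), the TCA cycle (0.92% and 0.43%) and glycolysis (0.33% and 0.69%) were as low, with some genes far above, such as Ndufv1, from a complex I subunit gene, at 29.8% and 31.96% and then 23.7% and 22.8%. In glycolysis Eno1, an enolase gene, was the highest by the mean of both tables, at 6.50% and 9.29%, then 16.1% and 18.4%, and Eno3, the muscle enolase gene, was higher in the FASTQ-derived table alone, at 20.1% ± 0.05.

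Ribosomal protein genes showed both extremes. The median of the 63 genes compared was 0.41% ± 0.001, and 0.84% ± 0.07 in the FASTQ-derived table. A member led in 7 and 5 of the 63. Over all compared genes a member led in 3.00% and 3.39%, and in genes at 500 TPM or more in 12.9% and 7.46%. Rps20 had 98.0% and 98.0%, then 99.4% and 99.4%, and Rps16 98.5% and 97.1%, then 84.1% and 83.0%. Rps20-201, with a complete intron of 192 bases, stood at 107.4 and 99.4 TPM, and at 132.4 and 132.1 in the FASTQ-derived table. In other genes of the list the tables were far apart. Members held 80.3% and 88.9% of Rps23 in the alignment-derived table and under 0.01% in the FASTQ-derived one. For Rpl37a they held 0.68% and 0.23%, then 39.2% and 46.7%.

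Fatty acid oxidation, the main fuel pathway of the heart, was the list of at least 4 genes whose medians were farthest apart between the tables: 6.88% ± 2.20 and 1.72% ± 0.66 over 16 genes. Slc27a1, Hadhb, Eci1, Acadvl, Acadm and Eci2 had 10% or more in every library and table. By the mean of both tables the highest was Slc27a1, a fatty acid transporter gene, at 44.8% and 41.7%, then 34.0% and 32.3%. Hadhb, a subunit of the trifunctional protein, had 27.5% in both animals, then 41.7% and 44.5%, above Slc27a1 in the FASTQ-derived table. Cpt1b, the muscle carnitine palmitoyltransferase, had 12.4% and 8.72% by alignment and 0% in both animals otherwise. Among calcium handling genes, Camk2d, a calcium-dependent kinase gene, had 19.4% and 17.6%, then 25.1% and 26.7%, and Trdn, the triadin gene, 20.4% and 20.7%, then 17.8% and 17.4%. Ryr2, the ryanodine receptor, had 4.41% and 4.21%. Of 8 clock genes compared the median was 5.18% ± 0.17 and 6.36% ± 0.38, with Per3 the highest at 32.9% and 21.1%, then 29.2% and 6.66%. The 20 transfer RNA synthetase genes had 2.39% ± 0.50 and 3.74% ± 0.13, with Tars at 37.8% and 45.5%, then 66.8% and 68.9%. The only gene of the minor spliceosome compared, Zcrb1, had 8.38% and 12.8%, then 11.9% and 0.80%.

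**Figure D4:**
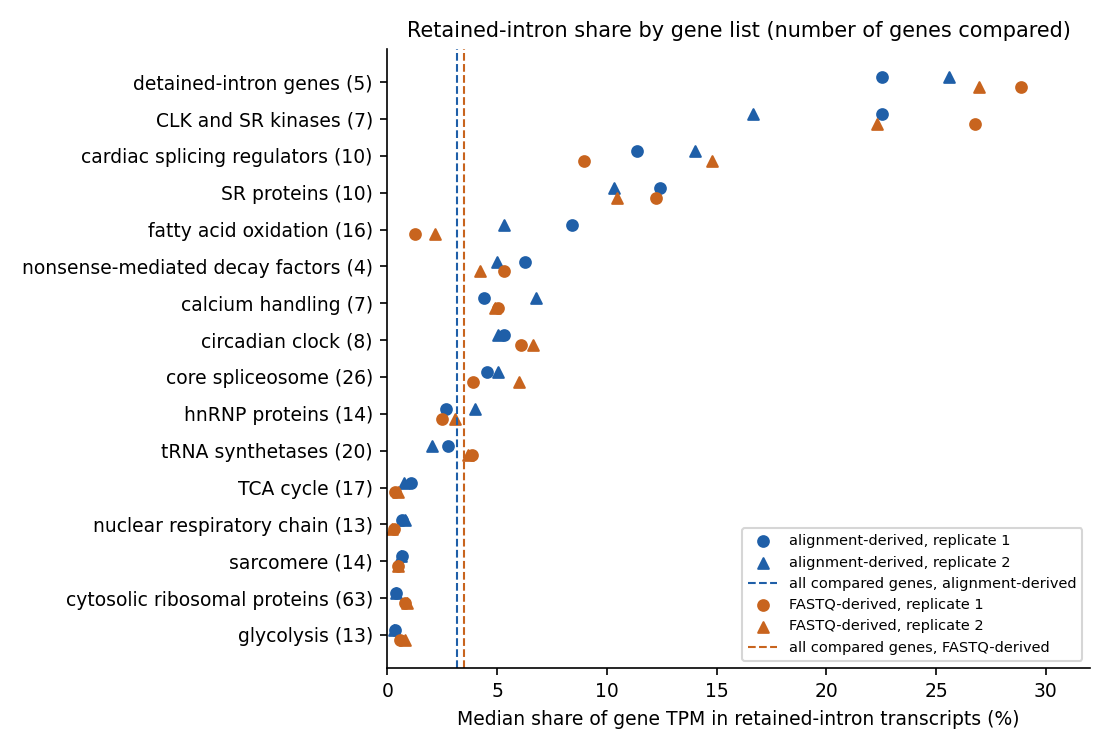
Median share of gene TPM in members for each gene list with at least 4 genes compared, by animal and table; dashed lines are the medians over all compared genes. Detained-intron genes, CLK and SR kinases, cardiac splicing regulators and SR proteins lie farthest to the right of both lines in every animal and table. The core spliceosome, nonsense-mediated decay, calcium handling and circadian clock lists lie to the right of both lines as well. The sarcomere, ribosomal protein, respiratory chain, TCA cycle and glycolysis lists lie to the left. Gene level and the number of members per gene are not adjusted for.

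The tissue label held: the 6 cardiomyocyte markers summed to 31652 and 27809 TPM, and the 5 lymphocyte markers to 0.55 and 0.72 TPM. Red blood cell markers summed to 3478 and 2255 TPM, endothelial to 340.6 and 296.4, fibroblast to 185.3 and 157.2, and macrophage to 57.8 and 48.1. In whole tissue, fewer cells of a type and less RNA per cell cannot be told apart. Mouse transcripts received 42146504 and 40486220 counts by alignment, and 43716083 and 41411342 from the FASTQ files. Members near 1 TPM had a median of 27.2 and 24.96 counts per TPM.

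Between the animals, 1654 members were compared, those whose mean level reached 1 TPM and that had 20 or more expected counts over both animals. Ratios were taken of TPM + 0.1, which understates differences of low transcripts, and centred on the median of all transcripts compared (-0.19 on the log2 scale, replicate 2 over replicate 1). A 2-fold or larger difference was seen in 285 members (17.2%), against 10.3% of transcripts of any biotype and 8.52% of protein-coding ones. Replicate 2 was the higher in 139 and the lower in 146; without centring the split was 107 and 202. By the FASTQ-derived values, 364 of 1714 differed (21.2%, against 11.7%). The deposited credibility bounds, which give the uncertainty of assigning reads to transcripts, did not overlap between the animals for 48 of the 285 (16.8%, against 16.0% of transcripts of any biotype that were 2-fold apart). With 1 group of 2 animals no test was possible, since an exact sign-flip test cannot give a two-sided p below 0.5. The percent depended on the level. At a mean of 1 to 2 TPM, 27.2% of members and 19.5% of protein-coding transcripts were 2-fold apart, at 5 to 20 TPM 6.71% and 2.52%, and at 20 TPM or more 0 of 110 members and 13 of 2033 protein-coding transcripts.

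**Figure D5:**
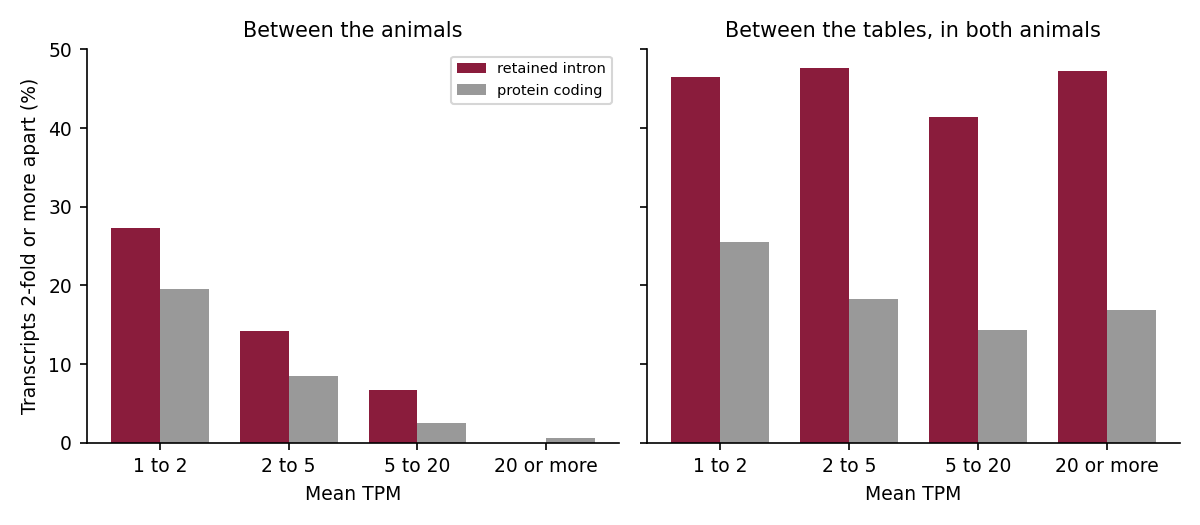
Percent of transcripts 2-fold or more apart, by mean TPM, for members and protein-coding transcripts. Between the animals (left) the percent of members falls from 27.2% at 1 to 2 TPM to 0 at 20 TPM or more. Between the tables (right) it stays between 41.4% and 47.6% in the groups shown. On the right, members with a mean under 1 TPM over both tables and animals are left out.

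The largest differences between the animals were of transcripts with 0 counts in 1 of them, so no fold is given. Casq2-203, from the gene of calsequestrin 2, the calcium store protein of the sarcoplasmic reticulum, had 0 counts in replicate 1 and 19.8 TPM in replicate 2 (312.8 counts). The FASTQ-derived table gave 0 and 7.50 TPM, so the direction was the same and the level lower. Casq2 as a gene stood at 338.1 and 291.4 TPM. Mrpl21-205 stood at 0 and 3.81 TPM, then 0 and 3.31. Capns1-207 (0 and 4.87 TPM) had 0 counts in both animals in the FASTQ-derived table, and Paics-207 (0 and 4.20 TPM) 0 and 0.18 TPM. Psmc6-205 (8.06 and 0 TPM), Mrps18c-205 (7.15 and 0) and Trip12-215 (4.17 and 0) likewise had 0 counts in that table, and Pih1d1-207 (3.83 and 0) stood there at 0.49 and 0 TPM. Kpnb1-202 stood at 4.03 and 0 TPM but at 9.26 and 5.93 there. Tmem147-205 stood at 0 and 3.80 TPM and at 3.58 and 15.7 there.

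Of the 1056 members compared in both tables, 67 were 2-fold apart in the same direction in both (6.34%, against 2.96% of transcripts of any biotype). The members named here were picked for having many private words, after their values were seen. Fosb-204, from the gene of an AP-1 transcription factor that stimuli induce within minutes, is 1 exon of 3629 bases with 69.9% private words. It holds 3 complete introns, counting overlapping versions that share an end. It stood at 0.13 TPM in replicate 1 and 2.25 in replicate 2, and at 0.11 and 2.43 in the FASTQ-derived table. Nr4a1-204, from another early response gene, has 75.8% private words and stood at 0.61 and 1.58 TPM (16.2 and 42.5 counts), then 0.59 and 1.84 TPM. Its share of Nr4a1 was alike in both animals, 23.5% and 24.7%, and the whole gene stood at 2.60 and 6.40 TPM. For Ryr2-206, which runs past a 5′ splice site of the ryanodine receptor gene and has 1049 bases of its own and 80.4% private words, replicate 1 was the higher, at 2.30 against 0.62 TPM and 2.23 against 0.56. The deposited bounds of the animals did not overlap for Fosb-204, Nr4a1-204 and Ryr2-206.

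Differences of 2-fold between the tables were counted under another entry rule than those between the animals, so the 2 percentages are not ranked. A member entered when it reached 1 TPM in both animals in at least 1 table, and 798 of the 1855 that entered did so in both. Entry through 1 table alone favours gaps between the tables, and the part of this was not tested. Of the 1855 members, 907 (48.9%) were 2-fold or more apart between the tables in both animals, against 27.8% of transcripts of any biotype. The figures for protein-coding, nonsense-mediated decay and processed transcripts were 20.7%, 40.1% and 52.9%. The FASTQ-derived table was the higher for 492 members and the alignment-derived for 415. From a mean of 1 TPM over both tables and animals upward, the percent of members did not fade with level, unlike that between animals. At 1 to 2 TPM, 297 of 639 members (46.5%) and 25.5% of protein-coding transcripts were 2-fold apart between the tables. At 20 TPM or more, 60 of 127 members (47.2%) and 16.9% of protein-coding transcripts were. Members with a mean under 1 TPM are in the 1855 but not in these level groups. Of the 1308 members at 1 TPM in the alignment-derived table, 798 (61.0%) also were in the other, as were 59.3% of the 1345 members there, and the same shares of protein-coding transcripts were 85.9% and 84.1%. The widest gaps were of transcripts with 0 or few counts in 1 table. Cops9-205 had 0 counts in the alignment-derived table and 94.0 and 89.3 TPM in the other, Rps13-208 had 0 counts against 71.9 and 106.4 TPM, and Tpt1-207 stood at 0.43 and 0.52 TPM against 358.8 and 247.2. Atp5l-202 stood at 0 and 0.08 TPM against 82.4 and 92.3, and Rps25-203 at 0.22 and 0 TPM against 80.2 and 101.4. In the other direction, besides Cox6b1-202 and Ndufb8-202, Gpx4-203 (84.5 and 104.5 TPM), Gstp1-203 (80.5 and 72.2) and Rps18-210 (143.1 and 126.8) had 0 counts in the FASTQ-derived table. Gstp1-203 has no private word at all. Within the alignment-derived table the bounds of a member's TPM were also wide: they lay within 2-fold in both animals for 38.8% of members at 1 TPM or more, against 67.3% of protein-coding transcripts.

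Members were also described by their place in the gene. A member ended within 100 bases of the gene's annotated end in 2471 of 21848 cases (11.3%), in 19.6% of the 1308 at 1 TPM or more in the alignment-derived table, in 13.5% of the 1345 in the FASTQ-derived one, and in 9 of the 22 at 100 TPM or more. These members held 35.2% ± 0.05 of member TPM, and 30.03% ± 1.31 in the FASTQ-derived table. Members at 1 TPM or more in the alignment-derived table were also shorter, with a median of 725 bases against 898 for the rest. They kept less intron: among members at 1 TPM or more in both tables, the stretch kept before a 3′ splice site had a median of 96 bases against 198 over all members, and that after a 5′ splice site 246 against 406. A member began within 100 bases of the gene's start in 25.3% of all cases, in 21.9% of those at 1 TPM or more in the alignment-derived table and in 18.1% in the FASTQ-derived one. The letters around the splice sites differed little. At intron base 5 of the 5′ splice site, G stood in 73.2% of introns in members at 1 TPM in both tables and in 76.9% of the others, and the median share of C or T in intron bases 20 to 4 before the exon was 76.5% in both sets.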

How the data were processed

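Total RNA of heart from 2 mice was sequenced, with 1 library each. The deposited alignment-derived tables hold expected counts and TPM per transcript, and the deposited FASTQ-derived tables hold estimated counts and TPM, both on mm10 with GENCODE M21 per the deposited description files. The deposited percent of gene TPM per transcript was used as a check of the shares computed here, which differed from it by at most 0.61 points in genes at 1 TPM or more. The deposited credibility bounds of TPM, a signal on the TPM scale whose interval level is not stated, were used as given. For the aligner and quantifier, names and versions were not given in the sources used here. Reads were assigned to the reference, and the effect of CAST/EiJ alleles was not tested.

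Members were taken by biotype, and exons, introns and 31-base words were computed from the GENCODE M21 annotation and transcript sequences. Shares used genes at 5 TPM or more in both animals. The ratio between animals used a pseudocount of 0.1, at least 20 counts over both animals and a 2-fold rule. The code for these ratios was tested on simulated data. There is 1 group, so no test was made. Transcripts were named by the level (15), the share of the gene (15), the difference between animals or tables (5 each way) and the top gene of each list, with members of the SR protein, kinase and detained-intron lists; others are marked as picked after their values were seen. Some items that this rule names are not reported here. Each member was taken by its annotated biotype without regard to its values, but the choice to describe this biotype, and the gene lists, were made with earlier results of these data known. No genome sequence was used, so GC content was not compared with other introns. Intervals are absent because 2 animals give only an SD. Software was Python 3.11.15, pandas 2.3.3, numpy 2.4.6, scipy 1.17.1 and matplotlib 3.10.9.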

Additional observations from a re-analysis of the deposited data

How the results depend on the processing

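Of 45 alternatives over 7 results, 22 stayed within the limits set for no change, 23 moved and 0 reversed; 6 were added after seeing the data. The 1308 members at 1 TPM became 2180 at 0.5 TPM and 368 at 5 TPM, 309 with only complete introns and 141 with only members of more than 50% private words. Leaving out an animal gave 1613 to 1850. The share of mouse TPM (2.12%) was 2.44% in the FASTQ-derived table, 4.54% without mitochondrial genes and ribosomal and signal recognition particle RNA genes, 1.27% by counts and 0.18% with only members of more than 50% private words. With 1 animal it was 1.97% to 2.27%. The median share of a gene (3.16%) was 3.51% in the FASTQ-derived table, 3.95% and 1.78% with gene filters of 1 and 20 TPM, 1.75% by counts and 3.09% to 3.45% with 1 animal. The 129 genes led by a member became 84 with both tables required, 68 with a gene filter of 20 TPM, 64 where the member must exceed 50% of the gene, 54 by counts and 162 to 184 with 1 animal. The 285 members apart between the animals became 135 with a pseudocount of 1, 3334 with no count minimum and a mean of 0.1 TPM, and 22 at a mean of 5 TPM. Without centring, 107 were higher and 202 lower in replicate 2, against 139 and 146. The 907 members apart between the tables became 295 at 5 TPM and 1334 to 1396 with 1 animal. The median log2 length ratio of retained to other introns was -1.62 for members at 1 TPM, against -1.32. Fewer transcripts or animals enter by construction in the stricter filters and the single-animal values; other causes were not tested. The comparison of GC content with other introns and its alternatives were not run. No paired analysis was possible because there is only 1 group.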
